A study of Drosophila melanogaster with 3 samples.

Results

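Pif1A peaks at promoters shared by coding genes were those whose summit lay within 500 bp of the transcription start sites (TSSs) of at least 2 protein-coding genes. They numbered 347 of the 7283 peaks in the authors' optimal list on the dm6 assembly. A TSS was the start of any transcript in the Ensembl release 115 annotation. Of the other peaks, 1695 had TSSs of 1 coding gene within 500 bp and 5241 had none. The samples were whole Drosophila melanogaster pupae of unknown age, males and females pooled, from a transgenic line that stably carries Pif1A with GFP at its C terminus. Chromatin was sonicated to 200 to 800 bp and recovered with an anti-GFP antibody in 3 biological replicates, which form the only group. The replicates share 1 control, and flies without the tag were not analysed here, so binding of Pif1A and signal that does not need it cannot be told apart. Whole animals mix all cell types, so no peak was assigned to a cell type and no marker could be checked. Each peak has a deposited score, the authors' signal value, which ranks peaks within 1 list. The lists hold no read counts, so the depth behind a score is unknown.

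In the compact fly genome many genes start close to a neighbour on the other strand, and the DNA between such divergent genes serves as the promoter of both. Genes on the same strand can also share a start, when a single transcript carries several coding regions or when alternative transcripts were annotated as separate genes. Promoters of broadly expressed fly genes often carry the DNA replication-related element (DRE, bound by DREF), motif 1 (bound by M1BP) or motif 7, and the insulator protein BEAF-32 is known at many divergent promoters. GAGA repeats, bound by GAGA factor, are known from developmentally regulated genes, and E-boxes are the sites of basic helix-loop-helix proteins.

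The nearest pair of coding genes was divergent at 279 of the 347 peaks, on the same strand at 54, and on opposite strands with overlapping 5′ ends at 14. The stretches between the TSSs of 6 divergent pairs are printed because they carry the strongest peaks of this kind: they are the highest-scoring pairs with the summit between TSSs spaced 60 to 300 bp and a match in all 3 replicates. They were read from the RefSeq genome of the same assembly (Release 6), plus strand, without the TSS bases themselves. The minus-strand gene starts just left of the first base, and the plus-strand gene just right of the last. Capitals mark exact matches, on either strand, to the E-box CAGCTG, the BEAF-32 core CGATA, printed in its reverse complement TATCG at these 6 pairs, and the TATA word TATAAA.
CG3437/CG3552 (chr3L:9457670-9457911): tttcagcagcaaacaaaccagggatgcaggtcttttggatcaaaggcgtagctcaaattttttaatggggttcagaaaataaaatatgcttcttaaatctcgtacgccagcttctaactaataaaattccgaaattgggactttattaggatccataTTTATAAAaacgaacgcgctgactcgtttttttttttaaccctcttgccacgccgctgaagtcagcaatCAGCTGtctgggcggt
Tcs5/CHMP2B (chr3L:5139396-5139618): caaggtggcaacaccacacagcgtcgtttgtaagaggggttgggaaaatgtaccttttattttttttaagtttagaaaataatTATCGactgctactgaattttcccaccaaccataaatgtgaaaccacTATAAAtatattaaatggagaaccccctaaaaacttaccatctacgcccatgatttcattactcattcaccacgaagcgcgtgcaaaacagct
CG7601/CIA30 (chr3R:29736746-29736964): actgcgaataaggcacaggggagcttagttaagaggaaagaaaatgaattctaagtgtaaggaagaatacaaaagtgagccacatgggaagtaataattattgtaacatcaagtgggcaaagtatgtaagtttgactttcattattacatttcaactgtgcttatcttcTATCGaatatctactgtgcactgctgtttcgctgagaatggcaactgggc
Art3/mRpS10 (chr3R:15229409-15229664): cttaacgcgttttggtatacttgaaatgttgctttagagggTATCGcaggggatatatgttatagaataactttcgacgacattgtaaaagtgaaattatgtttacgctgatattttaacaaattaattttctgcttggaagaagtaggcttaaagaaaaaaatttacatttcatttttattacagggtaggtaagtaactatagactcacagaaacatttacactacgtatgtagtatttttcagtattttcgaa
CG10747/Pyroxd1 (chr2L:20091349-20091434): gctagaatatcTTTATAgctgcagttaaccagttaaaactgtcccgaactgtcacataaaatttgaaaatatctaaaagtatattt
CG13390/CG17294 (chr2L:8376798-8377034): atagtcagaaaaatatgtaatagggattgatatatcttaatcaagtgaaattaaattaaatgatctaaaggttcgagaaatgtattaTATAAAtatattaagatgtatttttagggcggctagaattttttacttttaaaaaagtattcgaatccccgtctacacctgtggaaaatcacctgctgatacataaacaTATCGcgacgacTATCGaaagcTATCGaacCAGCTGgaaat

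The stretches are 86 to 256 bp long, have an A plus T content of 59.9% to 70.9%, and overlap no annotated coding-gene exon. An E-box lies 11 bp from the TSS of CG3552 and another 6 bp from the TSS of CG17294, with distances to TSSs counted from the nearer end of the word. Just beside the E-box of CG17294 lie 3 BEAF-32 core words, 15, 25 and 37 bp from the same TSS. Tcs5/CHMP2B, CG7601/CIA30 and Art3/mRpS10 have 1 BEAF-32 core word each, of which that at Tcs5/CHMP2B lies 7 bp from the summit. No stretch matched the words for DRE (TATCGATA), motif 1 (GGTCACACT), motif 7 (CATCNCTA), the Myc-type E-box (CACGTG) or GAGA factor, spelled GAGAG. A match to a word is a description of the letters and not a measured site.

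The strongest shared-promoter peak lay at Chro, which encodes a chromodomain protein of interbands and the spindle matrix, and Ssl1, which encodes a subunit of the general transcription factor TFIIH (3L, 22878704 to 22879121). It had a score of 1991, rank 9 in the optimal list, and ranks 11, 7 and 12 in replicates 1, 2 and 3. The TSSs of Chro and Ssl1 are 105 bp apart and the summit lay outside that gap, 92 bp inside Chro, on an exon. In the replicates the summit lay beyond the Chro TSS as well, by 90.5%, 83.8% and 66.7% of the spacing.

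The peak at CenG1A, which encodes a GTPase-activating protein for Arf, and mRpS23, a mitochondrial ribosomal protein gene, followed with a score of 1919 (2L, 13835273 to 13835652). It had rank 11 in the optimal list and ranks 12, 15 and 11 in the replicates. Here the TSSs are 492 bp apart and the summit lay between them, 105 bp from CenG1A and 387 bp from mRpS23. Counted from the TSS of the minus-strand gene, the replicate summits lay at 77.0%, 78.7% and 79.3% of the spacing.

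The printed pairs with a gap of 220 to 257 bp had the summit between 31.5% and 52.3% of the gap in the replicates. The remaining printed pair, CG10747/Pyroxd1, had it at 103%, 70.1% and 69% of 87 bp, in replicate 1 thus just beyond the Pyroxd1 TSS. CG7601/CIA30, where CIA30 encodes a complex I assembly factor, had the summit at 43.2%, 43.6% and 43.6% of its 220 bp, and ranks 32, 16 and 26 in the replicates (23 in the optimal list, score 1559). CG3552/CG3437 had it at 52.3%, 51.4% and 49.4% of 243 bp, with ranks 23, 17 and 25 (20 in the optimal list, score 1609). Tcs5/CHMP2B, the genes of a kinase of the KEOPS tRNA-modification complex and of an ESCRT-III subunit, had it at 41.5%, 45.5% and 42.0% of 224 bp, with ranks 36, 13 and 23 (21 in the optimal list, score 1590). At Art3/mRpS10, the genes of a protein arginine methyltransferase and a mitochondrial ribosomal protein, the position was less constant, at 47.5%, 37.4% and 49.4% of 257 bp. That peak had ranks 79, 50 and 53 in the replicates and 55 in the optimal list (score 1196). CG13390/CG17294 had the summit farther from the middle, at 32.8%, 43.3% and 31.5% of 238 bp (87 in the optimal list, score 1010).

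Among the 20 highest shared-promoter peaks matched in all 3 replicates, 18 had a divergent nearest pair, 1 a same-strand pair and 1 an overlapping pair. Their ranks ran between 7 and 201 over the replicates, with medians of 44.5, 41.5 and 40.5, and 17 of the 20 were among the first 100 peaks in every replicate. The 3 exceptions were mRpL23/CG9004 (ranks 100, 62 and 121), Adck1/CG4741 (73, 74 and 132) and CG13390/CG17294 (58, 201 and 69). For the last of these replicate 2 was the low one. Of the 40 genes of these pairs, 19 carry only a CG number as their symbol. The named ones include Stt3A, an oligosaccharyltransferase subunit paired with bves (score 1314), Pex11ab, a peroxisomal membrane protein gene paired with CG8320 (1258), and Elp5, an Elongator subunit gene paired with CG1275 (1074).

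**Figure D1:**
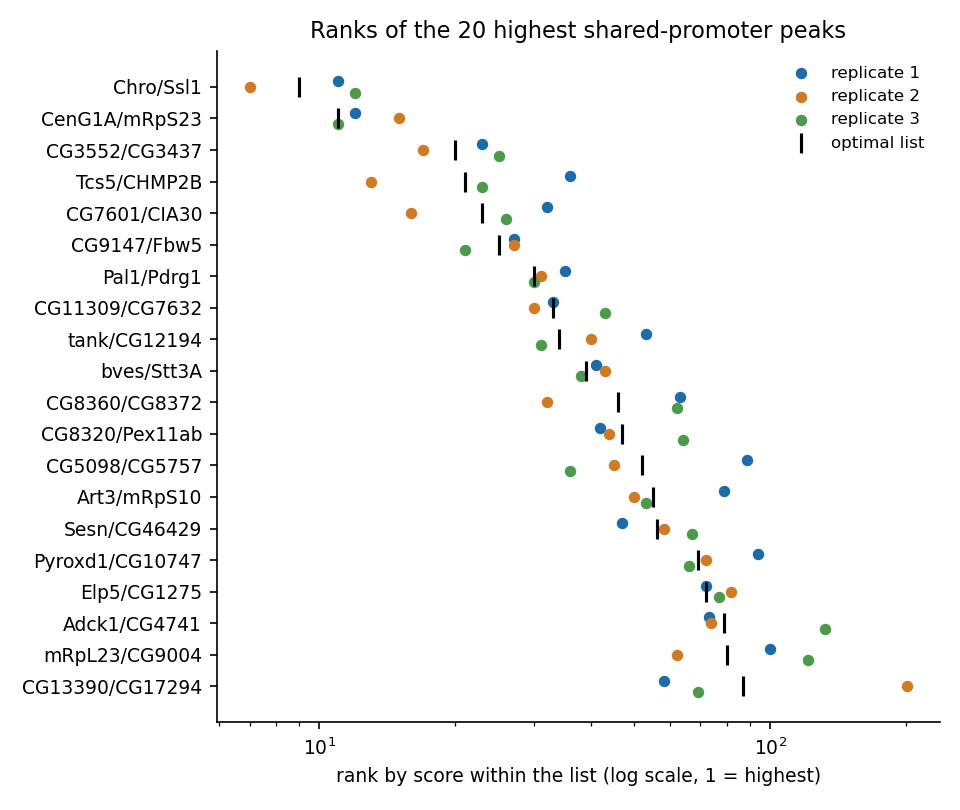
Rank by score of the 20 highest shared-promoter peaks matched in all replicates, 1 row per gene pair, on a log axis; coloured points are the 3 replicates and the black tick is the optimal list. The ranks of a pair lie close together in most rows, and the widest spread is at CG13390/CG17294, with ranks of 58, 201 and 69.

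Shared-promoter peaks scored higher than peaks with 1 coding gene. Their median score was 204.28 (quartiles 127.67 and 381.21, range 88.148 to 1991), against 152.42 (quartiles 109.84 and 273.11) for the 1695 peaks with 1 coding gene and 152.61 for all optimal peaks. Divergent pairs had a median of 213, same-strand pairs 159.66 and overlapping pairs 173.2. Of the 728 highest peaks of the list (10% of all), 74 were at shared promoters, which is 21.3% of the 347. The share was 22.9% for divergent pairs (64 of 279), 13% for same-strand pairs (7 of 54) and 21.4% for overlapping pairs (3 of 14), against 14.3% for peaks with 1 coding gene (242 of 1695).

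**Figure D2:**
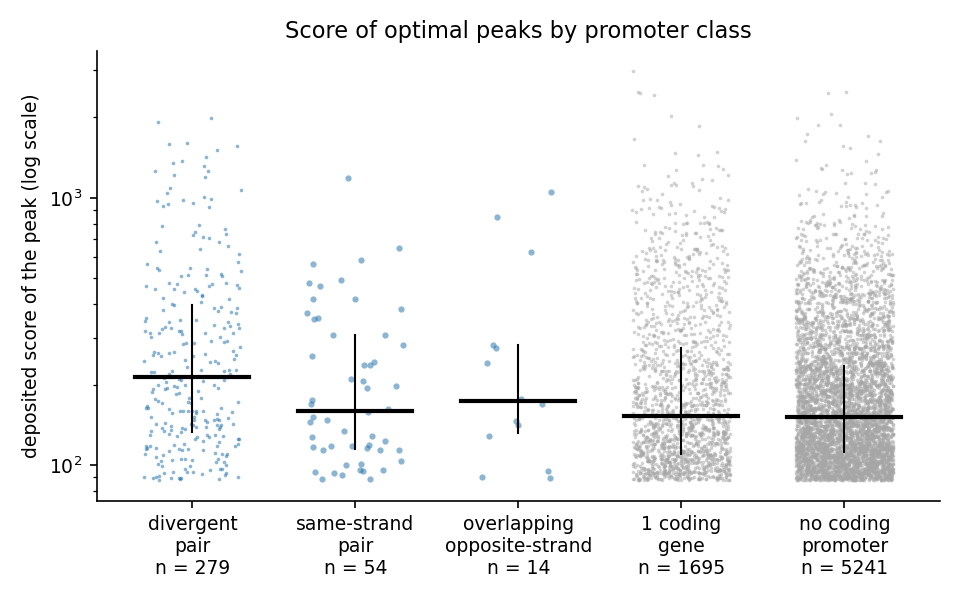
Deposited score of each optimal peak (log axis) by promoter class; horizontal bars are medians and vertical lines join the quartiles. Divergent pairs have the highest median, 213, and same-strand pairs, with 159.66, lie near the 152.42 of peaks with 1 coding gene.

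Shared promoters were also more frequent among the higher peaks of each replicate's own list. From the 30000 entries of each replicate's list the 7283 highest were used, as many as the optimal list holds. Of these, 495, 491 and 406 peaks were at shared promoters in replicates 1, 2 and 3, which is 6.797%, 6.742% and 5.575%. Of the lower peaks of the same lists, 1.91%, 1.82% and 1.88% were, so that the 2 ranges did not overlap. The difference was 4.50 percentage points ± 0.695 (SD, n = 3), higher in 3 of 3 replicates. An exact two-sided sign-flip permutation test over the replicates gave p = 0.25, the smallest value that 3 replicates allow, so no comparison over replicates here could reach 0.05. These tests and SDs measure only the spread between the 3 samples, which share a control.

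Within the 7283 highest peaks of a replicate, where rank percentile 0 is the strongest peak, shared-promoter peaks had median percentiles of 37.73, 37.58 and 37.80. Peaks with 1 coding gene had 50.71, 47.89 and 49.44. The difference was −11.6 points ± 1.33 (SD, n = 3), lower, that is stronger, in 3 of 3 replicates (exact two-sided permutation p = 0.25). Divergent pairs had median percentiles of 36.5, 35.2 and 34.6 and same-strand pairs 51.0, 45.8 and 54.5, a difference of −15.1 points ± 4.67 (SD, n = 3; exact two-sided permutation p = 0.25). This last difference changed with the number of peaks used: with only the upper 50% of the 7283 it was −0.43 points (exact two-sided permutation p = 1).

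At divergent pairs the summit mostly lay in the gap between the TSSs. The 279 pairs had a median spacing of 298 bp (quartiles 224 and 418, range 12 to 948), and the summit lay between the TSSs at 207 of them (74.2%). The rule forces this for the 37 pairs spaced more than 500 bp apart. For the 242 closer pairs the summit lay between the TSSs at 170 (70.2%), whereas 41.5% of the positions that the rule permits for these pairs lie between them. Over the replicates' own highest peaks the share between the TSSs was 74.5%, 76.9% and 76.3%, a mean of 75.88% ± 1.21 (SD, n = 3), at a median spacing of 296.2 bp ± 5.48.

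Spacing and summit position went together. Of the 84 peaks at pairs spaced 201 to 300 bp, 67 had the summit between the TSSs, at a median of 24 bp from the midpoint. Within 50 bp of the midpoint lay 46 of these 67. Over all 207 peaks between TSSs the median distance from the midpoint was 58.5 bp, and 89 (43%) lay within 50 bp. In wider gaps the summit sat nearer to 1 gene: at 401 to 500 bp the nearer TSS was a median of 92 bp away, and at 301 to 400 bp a median of 103 bp. With the 94.5 bp at 201 to 300 bp, the nearer TSS was thus at a similar distance in these bins. The other bins differed, with medians of 178 bp at 501 to 1000 bp (37 peaks), 29 bp at 101 to 200 bp and 78 bp up to 100 bp. These medians cover all peaks of a bin, also those with the summit beyond a TSS.

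In narrow gaps the summit lay beyond them. Of the 31 peaks at pairs spaced 100 bp or less, 26 had the summit inside 1 of the genes, a median of 87 bp past its TSS. Of these summits 16 were on an exon and 10 in an intron. The other 16.1% of the peaks had the summit between the TSSs, where the rule permits 6.61% of positions. At 101 to 200 bp, 50% of 30 peaks had it between, of 16.8% permitted. The narrowest class also had the highest scores: its median was 407.8, and 14 of its 31 peaks (45.2%) were among the 728 highest, against 14% to 26.2% in the other bins. Examples are CG11309/CG7632 (spacing 39 bp, score 1369, ranks 33, 30 and 43 in the replicates), with the summit 82 bp inside CG11309, and Elp5/CG1275 (33 bp, score 1074, ranks 72, 82 and 77), with the summit 57 bp inside Elp5. Among divergent pairs as a whole, summits beyond a TSS had a median score of 196 (n = 72) and summits between TSSs 215 (n = 207).

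**Figure D3:**
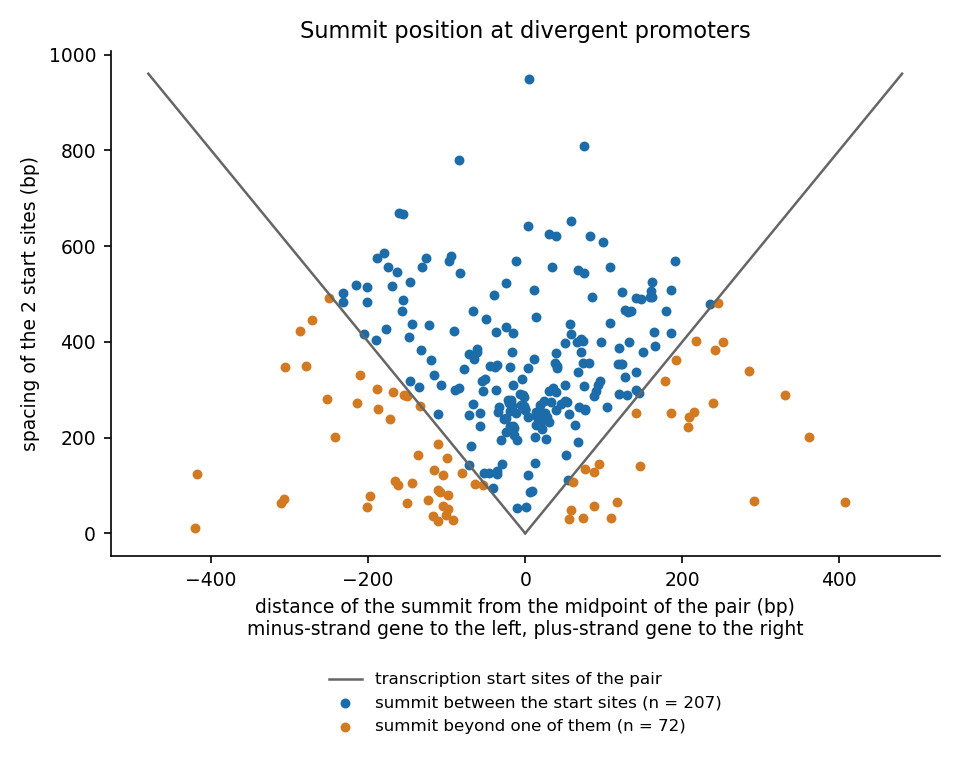
Each point is 1 of the 279 divergent-pair peaks, with the summit's distance from the midpoint of the pair (bp) on the x axis and the spacing of the TSSs (bp) on the y axis; the lines are the TSSs. The 207 blue summits lie between the lines and crowd around the midpoint at spacings of 201 to 300 bp. The 72 orange ones beyond the lines include 26 of the 31 at pairs spaced 100 bp or less.

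The side on which the summit fell was mostly the same in the replicates, where the highest peak with a summit within 100 bp of the optimal one was taken, which limits how far apart they can lie. Of the 228 divergent-pair peaks with a summit in all 3 full replicate lists, 61 had the optimal summit beyond a TSS. At 52 of these 61 (85.2%) all replicate summits lay beyond that same TSS. For 146 of the 167 with the summit between the TSSs (87.4%), all replicate summits were between them too. For these 167 the SD of the position over the replicates had a median of 6.59% of the spacing. Over all 288 shared-promoter peaks with a summit in every list, the replicate summits spanned a median of 41 bp, and 20 bp or less at 65 of them. The optimal list was made from these replicates, so the 2 are not independent.

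Distances to starts were used by the rule, and more starts lie near a shared-promoter summit by construction, so they are given as a description. The nearest TSS was a median of 99 bp away, against 187 bp for peaks with 1 coding gene, and within 150 bp at 77.5% (269 of 347) against 40.8% (692 of 1695). It was 94 bp for divergent, 148 bp for same-strand and 128 bp for overlapping pairs. The summit lay outside every coding gene at 50.4% of shared-promoter peaks, in an intron at 24.2% and on an exon at 25.4%. Of peaks with 1 coding gene 37.8% lay outside. Of the 347, 3 also had the TSS of a noncoding gene within 500 bp, as did 110 of the 1695.

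Same-strand peaks were nearly all at a single start that 2 or more annotated genes share. At 49 of the 54 the TSSs were identical, and the summit lay upstream of the nearest TSS at 90.7%, against 73.8% at divergent pairs and 74.7% at peaks with 1 coding gene. The strongest was at Sesn, which encodes the stress-responsive protein sestrin, and CG46429, with the summit 242 bp upstream of their common start (2R, 23713442 to 23713876). It had a score of 1188 and ranks 47, 58 and 67 in the replicates.

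The peak at a shared start of CG8788 and CG44286 had a score of 649 and ranks 82, 1117 and 93. A TSS of alc, the gene of the AMPK beta subunit, also lay within 500 bp of its summit. Replicate 2 was low there, and a neighbouring peak at another start of CG8788 and CG44286, with a score of 492, ranked 589, 168 and 942. CG44245/Gyg, where Gyg encodes glycogenin, had a score of 584 and ranks 315, 435 and 397. Ufsp1/Cyp6u1, a UFM1-specific protease gene and a cytochrome P450 gene, was one of the 5 same-strand pairs with separate TSSs, 107 bp apart, and had a score of 564 and ranks 319, 501 and 432. The sixth, chk/CG45092, had a score of 482 and ranks 852, 491 and 627.

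Pairs whose 5′ ends overlap were few. The genes of such a pair together cover the DNA on either side of their TSSs. A summit near them therefore lies inside a gene, unless that gene is very short. That no summit among the 14 lay outside the genes thus follows from the class and says nothing about the peaks. Of the 14 summits, 9 were on an exon and 5 in an intron. The strongest was at Adck1, which encodes a kinase of the AarF family, and CG4741 (score 1049), followed by CG31808/Cyt-c-d, where Cyt-c-d encodes a cytochrome c (849, ranks 158, 182 and 136). Next were Gcn5/ver, the genes of a histone acetyltransferase and a telomere-capping protein (626, ranks 375, 275 and 352), and Lkb1/CG9588, with the gene of the kinase Lkb1 (282, ranks 1865, 1074 and 2118). Bacc/Pgk, where Pgk encodes the glycolytic enzyme phosphoglycerate kinase, had a score of 274 and ranks of 2850, 5364 and 1189, and CG3770/CG15861 a score of 241 and ranks of 1862, 2362 and 1984.

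Peaks with more than 2 coding genes numbered 21, of which 17 had 3 genes, 3 had 4 and 1 had 5. The peak with 5 lay at the common start of PIG-M, CG42379, CG42380, CG42381 and NC2alpha, which include the genes of a mannosyltransferase of GPI-anchor synthesis and of a subunit of the transcriptional repressor NC2 (score 417, ranks 907, 627 and 966). A pair of peaks with 4 genes each lay at CG31650, CG33995, CG44000 and CG44001 (scores 283 and 93.7). The remaining one, with a score of 147 and ranks 3592, 5436 and 3097, lay at the start of tal-1A, tal-2A, tal-3A and tal-AA, the small-peptide coding regions of the polycistronic tarsal-less transcript. In all, the 347 peaks touched 655 genes and 322 different nearest pairs, and 25 pairs had 2 peaks, with summits a median of 202 bp apart.

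The rule has a limit at 500 bp. Members just inside it were wal/CG13197, with the second TSS 498 bp from the summit (score 199), and Nepl19/Nepl20 at 496 bp (350). The 3 peaks nearest beyond it were CG14968/ZnT63C at 506 bp (587), mask/Spase22-23 at 507 bp (117) and CG33229/pyx at 508 bp (203). All these pairs are divergent.

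Matching in the replicates was close to that of other peaks under the strict rule, and its order against theirs depended on the rule. With an overlap of 50% of both lengths among the 7283 highest, 177 of the 347 (51%) were matched in all 3 replicates, 89 in 2, 39 in 1 and 42 in none, against 47.2% of peaks with 1 coding gene and 45.1% of all optimal peaks in all 3. Per replicate, 74.4%, 72% and 69.2% were matched (mean 71.9% ± 2.6, SD, n = 3), against 74.1%, 67.6% and 74.7% (72.1% ± 3.98) of peaks with 1 coding gene, which is a difference within the spread. With summits within 100 bp, 66% were found in all 3, against 54.2% of peaks with 1 coding gene and 56.1% of all. With an overlap of 1 bp, 74.9% were, against 66% and 65.6%. With an overlap of 50% in the full replicate lists the order turned round, at 72.9% against 80% of peaks with 1 coding gene. Peak width enters the strict rule: 52.4% of shared-promoter peaks have the most common width of 424 bp, against 66.5% of peaks with 1 coding gene.

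To compare genes with and without a divergent neighbour over windows of equal length, each coding gene was represented by its 5′-most TSS. Genes with the TSS of an opposite-strand gene within 1000 bp upstream more often had a summit within 500 bp of their own. Of these 4650 genes 19.4%, 18.9% and 15.7% did in replicates 1, 2 and 3, against 11.5%, 9.58% and 10.7% of the 8080 genes with no other coding TSS within 1000 bp. The ranges did not overlap, and the difference was 7.39 percentage points ± 2.20 (SD, n = 3), higher in 3 of 3 replicates (exact two-sided permutation p = 0.25). In the optimal list 608 divergent genes (13.1%) and 835 lone genes (10.3%) had a summit, against 11.4% of all 13968 coding genes. A window around a divergent gene also covers part of its neighbour, and a summit there counts for both genes. How much of the difference this makes was not tested.

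The share depended on the distance to the partner. It was 15.4% ± 2.57 (SD, n = 3) for the 714 genes with a partner within 100 bp and 12.1% ± 2.16 for the 632 genes at 101 to 200 bp. It reached 23.8% ± 2.43 for the 963 genes at 201 to 300 bp and 22.3% ± 3.08 for the 721 at 301 to 400 bp, and was 17.3% ± 1.99 at 401 to 500 bp, 15.2% ± 1.44 at 501 to 750 bp and 16.3% ± 1.42 at 751 to 1000 bp. In every replicate both bins between 201 and 400 bp lay above the other bins of the same replicate. Counted as pairs of 5′-most TSSs within 1000 bp, 239 of 2323 annotated divergent pairs (10.3%) held an optimal summit within 500 bp of both TSSs.

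**Figure D4:**
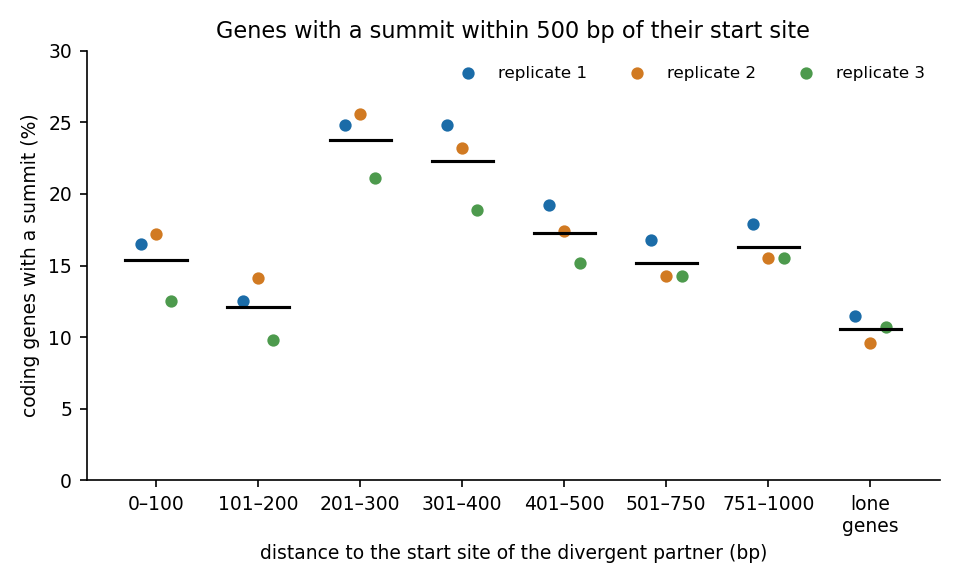
Percent of coding genes with a summit within 500 bp of the 5′-most TSS among the 7283 highest peaks of each replicate (points; bars are means), by distance to the divergent partner's TSS in bp, with lone genes at the right. The means are highest at 201 to 300 bp (23.8%) and 301 to 400 bp (22.3%), against 10.6% for lone genes.

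Ribosomal protein genes were the best represented of the 11 gene families counted by symbol. Of the 92 genes of cytosolic ribosomal proteins, 15 (16.3%) were at a shared-promoter peak, and of the 73 genes of mitochondrial ribosomal proteins 10 (13.7%), against 4.69% of all 13968 coding genes (655). All 26 peaks concerned were at divergent pairs. Mitochondrial ribosomal protein genes more often have a close neighbour: 82.2% of them have a TSS of another coding gene within 1000 bp, against 63% of the cytosolic genes and 42.8% of all coding genes. Of the genes with such a neighbour, 25.9% of the cytosolic, 16.7% of the mitochondrial and 10.9% of all coding genes were at a shared-promoter peak. A peak at any TSS, shared or not, was present at 42.4% of the cytosolic, 15.1% of the mitochondrial and 14.1% of all coding genes.

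The 2 ribosomal families differed in where the peak lay. At the 10 mitochondrial peaks the TSS of the ribosomal gene was a median of 130 bp from the summit and was the nearer of the pair at 3; 5 of the 10 were among the 728 highest. At the 16 cytosolic peaks it was a median of 35.5 bp away and was the nearer at 13; 1 of the 16 was among the 728 highest. The mitochondrial ones were led by CenG1A/mRpS23, Art3/mRpS10 and mRpL23/CG9004, then betaggt-I/mRpL24 (score 516, ranks 420, 930 and 361). The cytosolic ones were led by RpS27/Nup37, where Nup37 encodes a nucleoporin (score 468, ranks 1226, 369 and 714), and RpL7/Ripalpha (408, ranks 1231, 711 and 792). The median score was 385 at the mitochondrial and 256 at the cytosolic peaks. Of the 11 mitochondrial ribosomal protein genes with any peak at a TSS, 10 (90.9%) were at shared promoters, and of 39 such cytosolic genes 15 (38.5%) were, against 33.3% of all coding genes with such a peak (655 of 1965).

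The other families held few members, and their shares stand beside the 4.69% of all coding genes. Complex I, the first enzyme of the respiratory chain, had 3 of 40 genes (7.5%) at shared-promoter peaks (ND-ASHI, ND-MNLL and ND-49). The strongest of these peaks was at ND-ASHI/Fum1 (score 711, ranks 289, 255 and 189). Mediator, the coactivator of RNA polymerase II, had 3 of 25 (12%: MED27, MED30 and MED31). The proteasome had 2 of 48 (4.17%: Rpn13 and Rpn5) and aminoacyl-tRNA synthetases 2 of 33 (6.06%). Translation factors had 2 of 52 (3.85%) and nucleoporins 1 of 21 (4.76%). The genes counted by symbol as TAFs and general transcription factors (24 genes), cuticle proteins (120) and chemoreceptors (179) had none. That count left out Ssl1, the TFIIH subunit gene at the strongest shared-promoter peak. A TSS of another coding gene lies within 1000 bp in 70.8%, 12.5% and 19.6% of the genes counted in these families. Genes known only by a CG number were at shared-promoter peaks in 3.41% of cases (208 of 6104).

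E-boxes of the form CAGCTG were more frequent around shared-promoter summits than at divergent promoters in general, although not at the summit itself. Within 200 bp of the summit, 36.9% of the 347 windows held one, against 21.6% for peaks with 1 coding gene, 18.1% for all optimal peaks, 22.3% of windows of the same 401 bp on all coding TSSs and 24.2% of those on the midpoints of all 2323 divergent pairs. Within 50 bp it was 4.90%, against 4.72%, 3.02%, 9.33% and 6.46%. In divergent pairs the word was present in 5.38% of peaks at less than 50 bp from the summit, in 10.4% at 50 to 99 bp and in 17.2% at 100 to 149 bp. Of the 127 E-box words within 200 bp of a divergent summit, 87 (68.5%) lay within 50 bp of a TSS of the pair, as at CG3552 and CG17294 above. Much of such a window lies near 1 of the TSSs. The share of its positions within 50 bp of a TSS was not computed, so the 68.5% has no background.

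On the same windows at pair midpoints, divergent pairs with a summit held an E-box in 37.7% of cases and those without one in 22.7%. With the replicates' own highest peaks it was 35.9%, 38.3% and 36.0% of pairs with a summit, against 22%, 21.6% and 22.6% of pairs without, a difference of 14.6 points ± 1.80 (SD, n = 3). The share also followed the score, from 44.8% in the 116 highest shared-promoter peaks and 36.2% in the next 116 to 29.6% in the 115 lowest. Motif 7 was at 18% ± 1.49 of pairs with and 10.6% ± 0.40 of pairs without a summit, but by score it ran the other way, at 12.9%, 14.7% and 17.4% in the same order of peaks. The BEAF-32 core was higher with a summit by 5.16 points ± 1.06, DRE by 4.11 points ± 2.19, and motif 1 differed by −1.38 points ± 0.50. DRE was at 20.3% ± 1.85 and 16.2% ± 0.35, and TATAAA was at 60.3% ± 2.68 and 60% ± 0.42, a difference within the spread. Windows of 101 bp on the same midpoints, by the optimal list, gave another order for some words. There the BEAF-32 core was at 18% of pairs with a summit and 23.8% of those without. DRE was at 2.51% and 4.99%, motif 7 at 1.26% and 2.11%, and the E-box at 7.11% and 6.38%. In windows of 101 bp on the TSSs of divergent genes, DRE was at 9.54% with and 10.3% without a summit. The BEAF-32 core was at 36.8% and 36.4% there, and motif 7 at 12% and 6.31%. By the optimal list, pairs with a summit were spaced a median of 270 bp (quartiles 134 and 364), and those without one 305 bp (172 and 521). A window of 401 bp on the midpoint takes in both TSSs only at closer pairs. How much of these differences the spacing makes was not tested.

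Set against peaks with 1 coding gene, shared-promoter peaks had higher shares of the words of divergent promoters and a lower share of GAGA. Windows on summits and on midpoints have unlike centres. Within 200 bp of the summit, DRE was in 16.4% of shared-promoter windows against 2.83% for peaks with 1 coding gene, but also in 16.8% of all divergent midpoints. The BEAF-32 core, which every DRE contains, was in 62.0% against 41.9%, and in 63.5% of all divergent midpoints. Motif 7 was in 15% against 5.13%, and in 11.7% of all midpoints, and motif 1 in 7.20% against 2.06%, and in 10.9% of all midpoints. GAGA was in 37.5% against 63.1%, in 27.5% of all midpoints and in 37.4% of windows on all coding TSSs. By kind of pair, GAGA was in 31.2% of divergent and 66.7% of same-strand windows, and motif 7 in 17.6% and 5.56%. The Myc-type E-box was in 7.49% against 4.66%. These shares describe windows and carry no test.

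**Figure D5:**
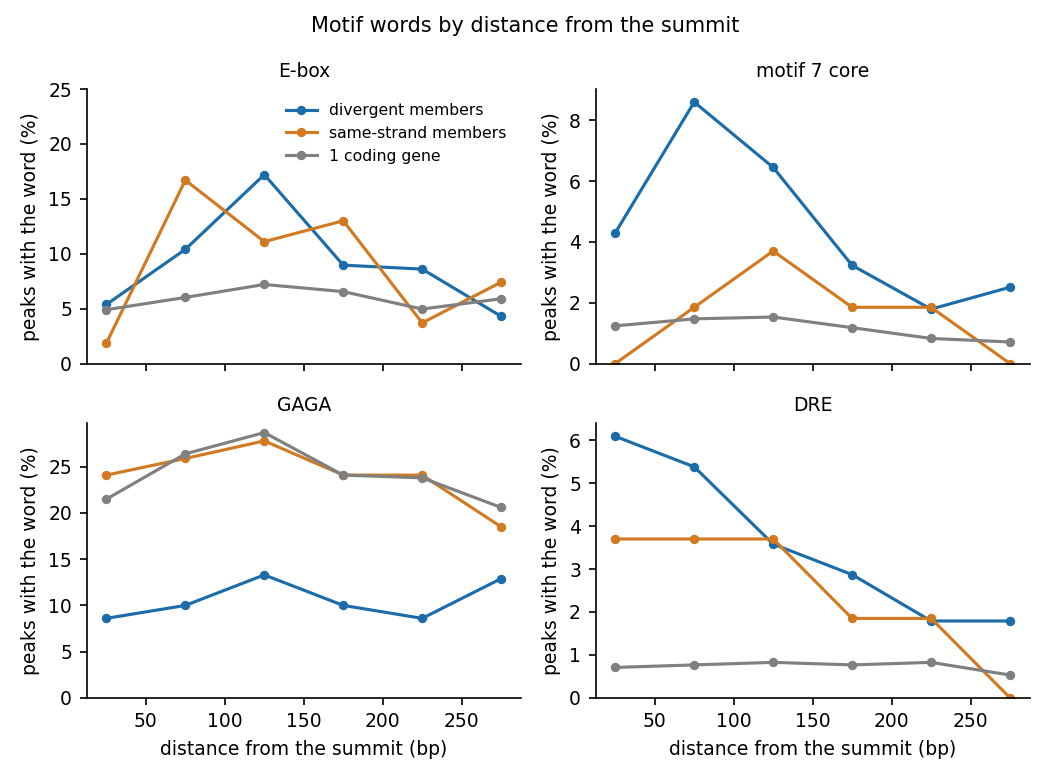
Percent of peaks with a motif word in bins of 50 bp by distance from the summit (bp), for divergent members (blue), same-strand members (orange) and peaks with 1 coding gene (grey). The E-box in divergent members is highest, at 17.2%, 100 to 149 bp from the summit, and GAGA in same-strand members runs with peaks of 1 coding gene, above divergent members.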

How the data were processed

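Per the deposited file descriptions, the authors called peaks and background on dm6 for each replicate and for the pooled replicates against 1 shared control, and derived the optimal list from them by the irreproducible discovery rate (IDR) procedure. For the aligner, the peak caller and the IDR cutoff, the sources used here give no name or value. The unit of the deposited score is a peak signal value, comparable within 1 list. Lists on dm3 were not used.

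The summit was taken as the start of the peak plus its offset, counted from 1. Genes came from Ensembl release 115 (BDGP Release 6), and 13968 coding genes with 19630 TSSs were used. The pair of a peak is the 2 coding genes with the nearest TSSs. Peaks were matched to the 7283 highest of each replicate by an overlap of 50% of both lengths, and ranks and summits in a replicate were read from the highest peak of its full list with a summit within 100 bp. Comparisons over replicates used an exact two-sided sign-flip permutation test, and peaks were not treated as replicates. Motif words were searched exactly on both strands. Steps were tested on simulated data. Python 3.11.15, pandas 2.3.3, numpy 2.4.6 and matplotlib 3.10.9 were used.

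The genes named are those of the 20 highest shared-promoter peaks matched in all 3 replicates, the 6 highest same-strand and 6 highest overlapping peaks, the 4 with most genes and the 3 on each side of the 500 bp limit, of which 1 is not reported here. Members of the gene families were named from counts by symbol. Members and lists were chosen with earlier results of these data known. Motif shares at TSSs, by score, by distance and per replicate, the position of summits in the replicates and the ribosomal protein peaks were added after values had been seen.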

Additional observations from a re-analysis of the deposited data

How the results depend on the processing

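No paired analysis was possible because there is only 1 group, so no replicate numbers pair samples across groups; the differences within replicates are those in the report. Of 105 alternatives over 21 results, 30 were of differences over replicates, which kept their sign, all with p of 0.25 or more, though many left the spread. Of the others 15 stayed within the spread or within 1.5 times the main count, and 60 moved. With a window of 200 bp there were 144 shared-promoter peaks (1.977% of optimal peaks, 74.31% divergent, median spacing 220 bp, median score 250.5). With 1000 bp there were 595 (8.17%, spacing 386 bp, 66.95% of divergent summits between the TSSs, score 175.1). With only the 5′-most TSS of each gene the percent of peaks was 4.064, the spacing 272 bp and the share between TSSs 64.17%. In the upper part of the optimal list, cut at the median, there were 218 peaks (5.987%, 83.49% divergent, spacing 288 bp, 76.37% between, score 318.1, 62.39% matched in all 3 replicates), against a median score of 273.7 and 68.68% matched for peaks with 1 coding gene. Keeping only peaks matched in both remaining replicates when each replicate was left out gave 197 to 212 peaks (4.801% to 5.498%), 77.66% to 80.19% divergent, spacings of 278 to 292 bp, 70.91% to 72.94% between and a median score of 238.5 to 260.6, against 174.7 to 191.5 for peaks with 1 coding gene. The share matched was then 56.77% to 61.1%, against 55.22% to 61.65%. It was 74.93% with an overlap of 1 bp, 65.99% with summits within 100 bp and 72.91% with the full replicate lists, against 66.02%, 54.16% and 80% for peaks with 1 coding gene, so that the main order of the 2 classes (51.01% against 47.2%) turned round with the full lists, in the upper part and without replicate 2 (60.81% against 61.65%). Motif shares were 5.19% for DRE, 1.44% for motif 1, 3.17% for motif 7, 1.15% for the Myc-type E-box, 10.4% for GAGA, 20.7% for the BEAF-32 core, 21% for TATA and 4.90% for the E-box within 50 bp of the summit, and 16.43%, 7.205%, 14.99%, 7.493%, 37.46%, 61.96%, 55.04% and 36.89% within 200 bp. The difference in the share of peaks at shared promoters, higher against lower peaks, ran from 2.19 (window of 200 bp) to 6.08 points (1000 bp), that in rank percentile between shared-promoter peaks and those with 1 coding gene from −4.87 (1000 bp) to −22.5 points (200 bp), that between divergent and same-strand pairs from −0.43 (upper 50% of N) to −22.9 points (200 bp), and that in genes with a summit, divergent against lone, from 3.25 (partner within 200 bp) to 9.43 points (window of 1000 bp). The cause was not tested. Depth is unknown, so the limit it sets could not be given.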

Other observations

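The 347 shared-promoter peaks were on 3R (86), 2L (78), 3L (74), 2R (59), X (48) and 4 (2), against 1671, 1335, 1606, 1254, 1393 and 24 of all optimal peaks. They merge into 328 regions. In windows of 101 bp on TSSs, the E-box was present at 18.6% of the 608 divergent genes with an optimal summit and at 12.1% of the 4042 without one, and at 9.94% of the 835 lone genes with a summit and 6.78% of the 7245 without one. GAGA was present at 11.3% and 8.88% of the same divergent genes, and at 20.1% and 11.9% of the lone genes. TATAAA was less frequent at genes with a summit in both classes, at 10.5% against 14.9% of divergent genes and at 8.86% against 19.6% of lone genes. These shares were computed after other values had been seen and carry no test.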
